A study of Homo sapiens with 7 samples.

Results

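The genes described here are 8 genes of the ubiquitin system that act in late red cell maturation: UBB, UBE2H, UBE2O, FBXO7, UBAC1, TRIM58, TRIM10 and RANBP10. They were taken by symbol from a table of 32738 gene rows, in which each of the 8 had 1 row, and all 8 were abundant enough to test. Ubiquitin is a small protein that is joined to other proteins in a chain of steps by an activating enzyme, a conjugating enzyme and a ligase, and many proteins so marked are taken apart by the proteasome. Erythroblasts that mature towards red cells discard most of their proteins, their ribosomes and their nucleus while keeping haemoglobin, and ubiquitin marking is part of how they do so. UBB encodes ubiquitin itself, UBE2H and UBE2O are conjugating enzymes, and the other members are ligases or parts of ligase complexes.

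The RNA came from HUDEP-2, a human erythroid line immortalised from progenitors of umbilical cord blood, under CRISPR interference, in which a guide RNA leads a repressor protein to a chosen stretch of DNA. There were 2 libraries with guide 1, 2 with guide 2 and 3 with a non-targeting guide. Guides 1 and 2 are annotated to an enhancer of TMCC2, which the design places upstream of the erythroid-specific isoform of that gene. All groups were expanded with stem cell factor, erythropoietin, dexamethasone and doxycycline, infected with lentivirus and kept for 72 h in differentiation medium with 3 IU/ml erythropoietin, so no group is free of virus, and each result holds for 1 line at 1 time. Nothing in the labels ties the replicates to separate cultures, and each p-value therefore rests on a spread that may be only technical.

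The guide RNAs are shown because they define the groups, written in lower case from 5′ to 3′:
guide 1: gtcgtgctgcaggtgaagtg
guide 2: ccatccttcagagtaaacag
non-targeting: atcgcgaggacccgttccgcc
RefSeq promoter windows (GRCh38.p14, from 250 bases before to 50 bases after a start) were available for 7 of the 8 members, with 9 windows in all, and UBE2H had no entry. The closest ungapped match in these windows, on either strand, had 7 mismatches for guide 1, 8 for guide 2 and 8 for the non-targeting guide. The rest of the genome was not searched here.

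Library totals ran from 9780800 to 11350113 counts. TMCC2, the targeted gene, had 229 and 219 CPM with guide 1, 229 and 260.4 CPM with guide 2, and 832, 839 and 937 CPM in the non-targeting libraries. CPM here is the count relative to the library size scaled by TMM, a method that corrects for differences in RNA composition. TMCC2 fell to 26.9% of its non-targeting level with both guides together (95% interval 23.5% to 30.8%, edgeR quasi-likelihood test, Benjamini-Hochberg adjusted p = 4.43e-08 over 10212 tested genes). All 11 erythroid marker genes on the list were tested and took together 255300 to 268200 CPM of total counts in the guide libraries and 233500 to 265500 CPM in the non-targeting libraries. The 6 lymphocyte markers summed to at most 1.125 CPM and the 8 neutrophil and monocyte markers to at most 2.91 CPM in a library. Megakaryocyte and platelet markers summed to 183 to 214 CPM in the guide libraries and 177 to 208 CPM in the non-targeting libraries, with 3 of 8 at 0 throughout. Non-targeting replicate 1 stood apart: its deviation from the gene means had an SD of 0.30 on the log2 scale, against 0.14 to 0.17 in the other 6 libraries, and correlated at -0.68 (Spearman, across genes, which are not independent) with the GC content of the transcripts. In the other 6 libraries that correlation ran from -0.31 (guide 2 replicate 2) to 0.42 (non-targeting replicate 2).

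The 8 ubiquitin genes differed widely in level and little between groups. Set per kilobase of the median annotated transcript length, FBXO7 led with 808 ± 32.7 CPM per kilobase (SD, n = 7 libraries) and UBAC1 followed with 676 ± 53.7. UBB stood at 228 ± 22.4, TRIM10 at 188 ± 6.54 and UBE2H at 171 ± 10.98 CPM per kilobase. RANBP10 had 34.8 ± 4.01, UBE2O 22.5 ± 2.26 and TRIM58 13.3 ± 2.89 CPM per kilobase. The ranges of the 7 libraries overlapped between UBB and TRIM10, between TRIM10 and UBE2H and between UBE2O and TRIM58. Within a library, however, TRIM10 was above UBE2H and UBE2O above TRIM58 in 7 of 7, and UBB above TRIM10 in 6 of 7; the ranges of UBE2O and TRIM58 met only through the TRIM58 value of non-targeting replicate 1. With the longest transcript in place of the median, UBAC1 led with 308 ± 24.5 CPM per kilobase before FBXO7 with 222 ± 8.97, UBE2H stood at 19.8 ± 1.27, and UBE2O came last with 8.57 ± 0.859. FBXO7 and UBAC1, UBB and TRIM10, and UBE2O and TRIM58 thus changed places with the length used. UBE2H kept its place while its level changed most, since its annotated transcripts have a median of 595.5 bases and a longest of 5151 bases. Among the 9424 tested genes with an annotated length, the non-targeting level of FBXO7 ranked 169 by median length and 220 by longest transcript, and that of UBAC1 ranked 209 and 176.

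**Figure D1:**
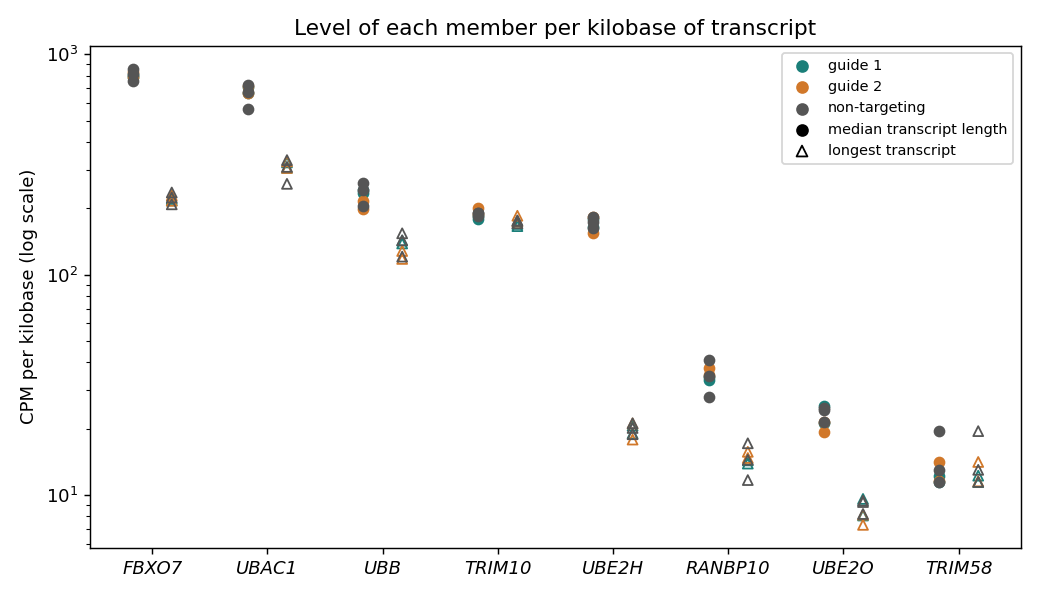
Level of each of the 8 genes in CPM per kilobase (log axis) in the 7 libraries, coloured by group; circles use the median and open triangles the longest annotated transcript. FBXO7 and UBAC1 lie highest on both scales, and UBE2H moves from 171 to 19.8 on average with the choice of length.

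UBB, the ubiquitin gene of the set, encodes several copies of ubiquitin in a row and lies on the plus strand at chr17:16380798-16382745 (GRCh38, GENCODE v29; the counts were made on GRCh37). It had 175 and 169.6 CPM with guide 1, 157 and 144 CPM with guide 2, and 148, 175 and 189 CPM in the non-targeting libraries. Both guide 2 libraries lay below both guide 1 libraries, while the non-targeting libraries spanned nearly the whole range. The level with both guides was 94.4% of the non-targeting level (95% interval 81.1% to 109.9%), and UBB did not pass the test. Without non-targeting replicate 1, its difference with guide 2 was -0.27 (SE 0.08, adjusted p = 0.0635, edgeR), against -0.18 (SE 0.12) with it. Its pseudogene UBBP4 had 104 to 134 counts in a library, against 1529 to 1947 for UBB. In GENCODE v29, 461 exon bases of UBB lie under an antisense gene, AC093484.3, which has no row under that symbol among the counts. The treatment of reads that align to both UBB and UBBP4 is not given in the sources used here. The chemistry does not mark strand, so antisense reads could be counted for UBB. Counts of UBB are uncertain to that extent.

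RPS27A, another gene of the ubiquitin list, encodes ubiquitin fused to a ribosomal protein. It had 837 ± 11.9 CPM with a guide (SD, n = 4) and 830.3 ± 44.0 CPM in the non-targeting libraries (SD, n = 3), a log2 difference of 0.01 (SE 0.08) that was not called.

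UBE2H, the conjugating enzyme that works with the CTLH ligase complex, lies on the minus strand at chr7:129830732-129952949. It had 97.9 and 106 CPM with guide 1, 91.8 and 109 CPM with guide 2, and 109, 97.1 and 104 CPM in the non-targeting libraries. The 3 groups overlapped. With both guides it stood at 98.0% of the non-targeting level (95% interval 84.3% to 113.9%). Among 33 tested conjugating enzyme genes, its non-targeting level per kilobase ranked 4 by median length and 8 by longest transcript.

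UBE2O, at chr17:76389451-76453206 on the minus strand, is a large enzyme that joins conjugating and ligase functions, and in mouse reticulocytes it is needed for the loss of ribosomes. It had 52.1 and 43.8 CPM with guide 1, 44.2 and 39.7 CPM with guide 2, and 44.5, 50.4 and 51.2 CPM in the non-targeting libraries. Both guide 2 libraries lay below all 3 non-targeting libraries, by a narrow margin. At 421 to 560 counts a library it was, with TRIM58, among the 2 members with the fewest counts. The level with guide 2 was 86.2% of non-targeting (95% interval 70.4% to 105.7%) and with guide 1 98.5% (95% interval 80.5% to 120.5%), and neither passed the test (adjusted p = 0.999 and 0.984, edgeR). Without non-targeting replicate 1 the adjusted p with guide 2 was 0.193 (edgeR). Over 16 alternatives its log2 fold change with guide 2 ran from -0.29 to -0.14. With guide 1 it ran from -0.15 to 0.098, with the other sign in 4.

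FBXO7, at chr22:32474676-32498829 on the plus strand, is an F-box protein, the part of an SCF ligase that picks the substrate, and it binds the proteasome regulator PSMF1. It had 1521 and 1495 CPM with guide 1, 1489 and 1574 CPM with guide 2, and 1435, 1542 and 1624 CPM in the non-targeting libraries. The non-targeting libraries held both its lowest and its highest value. With 15077 to 17120 counts a library it was the best measured member, and its level with both guides was 99.1% of non-targeting (95% interval 87.5% to 112.2%). Only 2.49% of the 7226 tested genes with a mean of at least 5 CPM varied less over the 7 libraries.

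UBAC1, at chr9:135932969-135961380 on the minus strand, is the smaller subunit of the KPC ligase, whose catalytic subunit is RNF123 and whose known target is the cyclin-dependent kinase inhibitor CDKN1B. It had 603 and 570.3 CPM with guide 1, 609.9 and 569 CPM with guide 2, and 482, 618 and 576 CPM in the non-targeting libraries. Non-targeting replicate 1 was its lowest library and the other 6 lay between 569 and 618 CPM. With both guides it stood at 105.3% of the non-targeting level (95% interval 90.9% to 121.8%), a log2 difference of 0.07 that was -0.02 without non-targeting replicate 1. RNF123 had 431 ± 25.8 CPM with a guide (SD, n = 4) and 437 ± 61.2 CPM in the non-targeting libraries (SD, n = 3), and CDKN1B 31.7 ± 4.40 and 36.8 ± 7.51 CPM. Neither of these partners was called.

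TRIM58, at chr1:247857199-247878205 on the plus strand, is a RING ligase of late erythroblasts that in mouse cells binds the motor protein dynein and takes part in the expulsion of the nucleus. It had 36.8 and 39.4 CPM with guide 1, 37.1 and 45.5 CPM with guide 2, and 62.8, 36.9 and 41.9 CPM in the non-targeting libraries. The value of 62.8 CPM, in non-targeting replicate 1, was 1.71 times the lowest library, while the other 6 libraries lay between 36.8 and 45.5 CPM. This gave TRIM58 the most negative fold change of the 8, at 84.0% of the non-targeting level with both guides (95% interval 66.1% to 106.7%, log2 fold change -0.25, SE 0.16, adjusted p = 0.998, edgeR). Without non-targeting replicate 1 the log2 fold change was 0.01 (SE 0.10), and without replicate 2 it was -0.40 (SE 0.16, adjusted p = 0.569, edgeR). With the GC trend of each library removed and all 7 libraries kept, it was -0.26 (SE 0.14, adjusted p = 0.686, edgeR). Why TRIM58 was high in non-targeting replicate 1 was not tested. Over all 7 libraries TRIM58 was also the most variable member: 86.5% of the 7226 genes varied less. Outside non-targeting replicate 1 its deviations from its mean ran from -0.20 to 0.11 on the log2 scale, against -0.22 to 0.17 for UBE2O.

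TRIM10, at chr6:30151945-30160934 on the minus strand, is a RING ligase of the same family that in mouse cells is needed for erythroid maturation. It had 589 and 602 CPM with guide 1, 617 and 656 CPM with guide 2, and 625, 606 and 621 CPM in the non-targeting libraries. Both guide 1 libraries lay below, and guide 2 libraries overlapped with, the non-targeting libraries, and the whole span was a factor of 1.11. Only 1.44% of the 7226 genes varied less. The level with both guides was 99.7% of non-targeting (95% interval 88.2% to 112.7%). Per kilobase it was the highest of 34 tested TRIM family genes on both length scales, and TRIM58 ranked 17 by median length and 8 by longest transcript.

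RANBP10, at chr16:67723066-67806652 on the minus strand, is a subunit of the CTLH ligase complex and a close relative of RANBP9. It had 74.1 and 76.6 CPM with guide 1, 83.8 and 78.5 CPM with guide 2, and 62.4, 91.6 and 77.0 CPM in the non-targeting libraries. All 4 guide libraries lay inside the range of the non-targeting libraries, whose replicates 1 and 2 were the lowest and the highest. Its level with both guides was 101.6% of non-targeting (95% interval 84.6% to 122.0%), a log2 difference of 0.02 that was 0.17 without non-targeting replicate 2 and -0.11 without replicate 1. Per kilobase of median transcript length RANBP10 stood at 34.5 CPM in the non-targeting libraries, against 7.07 CPM for RANBP9, and of longest transcript at 14.4 against 4.28 CPM.

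**Figure D2:**
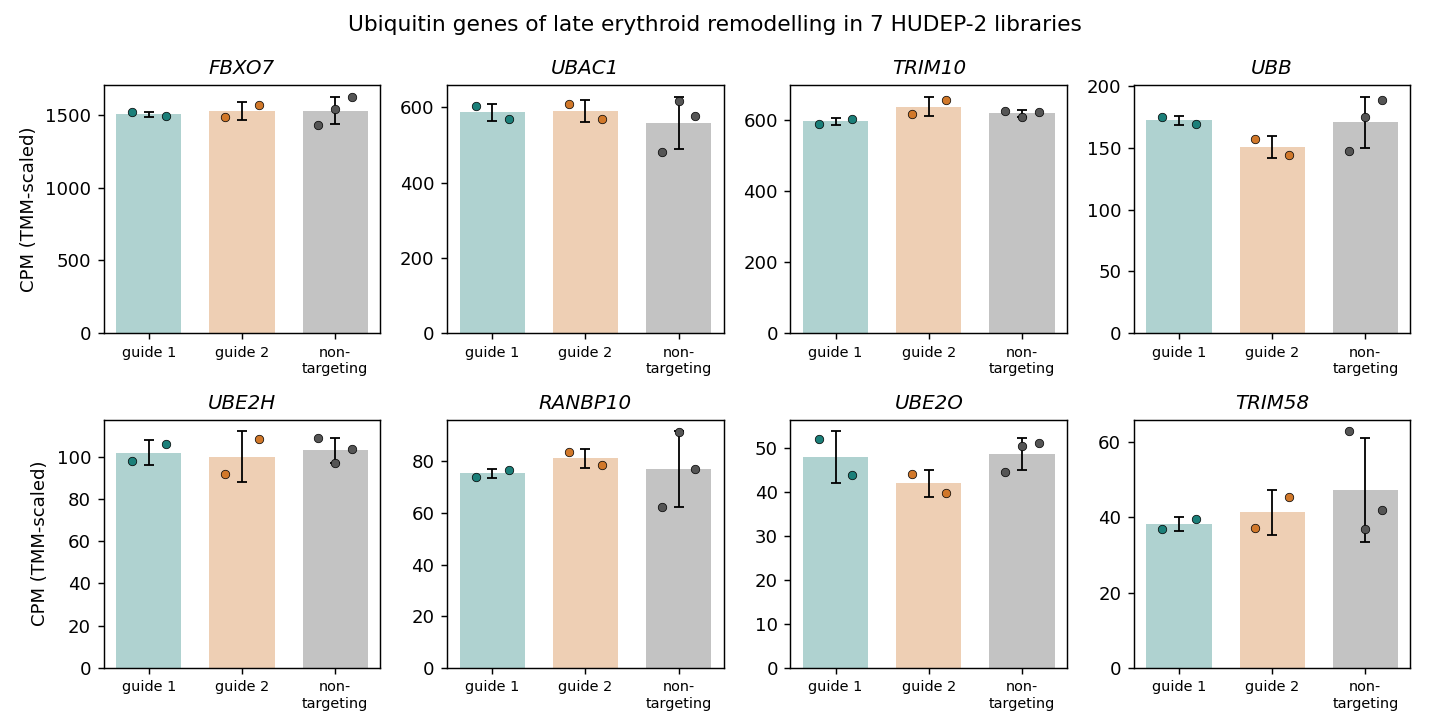
TMM-scaled CPM of the 8 genes in guide 1 (2 libraries), guide 2 (2) and non-targeting (3) libraries; bars are means, error bars SDs and points libraries, and every axis starts at 0. FBXO7 sits between 1435 and 1624 CPM in all libraries, and the 62.8 CPM of TRIM58 is in non-targeting replicate 1.

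Whether repression of the TMCC2 enhancer altered these genes was asked in 4 comparisons over the whole table. None of the 8 was called in any of them, nor did any of the 8 reach an unadjusted p under 0.05, and DESeq2 called 0 of the 8 as well. For both guides against non-targeting, 0.0196% of the 10212 tested genes were called and 4.19% had an unadjusted p under 0.05. The adjusted p was 0.998 for each of the 8 (edgeR), their log2 fold changes ran from -0.25 to 0.07 with 2 positive and 6 negative, and their median was -0.02, against -0.01 over all tested genes. Without non-targeting replicate 1 the calls over all genes numbered 53 for both guides, 59 for guide 1, 128 for guide 2 and 32 for guide 2 against guide 1, in place of 2, 3, 1 and 0, and 0 members were among them. For no member did the 4 guide libraries lie wholly above or below the 3 non-targeting libraries, where 3.03% of all tested genes lay wholly above and 2.37% wholly below.

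Each guide alone also gave 0 members. With guide 1, 0.0294% of tested genes were called and 4.78% had an unadjusted p under 0.05, and the members' log2 fold changes ran from -0.31 (TRIM58) to 0.07 (UBAC1), with a median of -0.02. TRIM10 was the 1 member whose groups did not overlap, lower with guide 1, as were 10.3% of all tested genes, with 11.3% wholly higher. With guide 2, 0.00979% were called and 2.75% had an unadjusted p under 0.05, and the range was -0.21 (UBE2O) to 0.08 (UBAC1), with a median of -0.02. UBE2O was the 1 member wholly below the non-targeting libraries with guide 2, as were 6.86% of all tested genes, with 8.16% wholly above. The 2 comparisons share their control libraries.

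Compared directly, guide 2 and guide 1 differed at 0 of the 8, and 0% of all tested genes were called, with 2.86% at an unadjusted p under 0.05 and 2 genes called by DESeq2. UBB with guide 2 was 87.4% of its guide 1 level (95% interval 71.6% to 106.7%), and UBE2O 87.6% (95% interval 70.2% to 109.3%). RANBP10 stood at 107.7% (95% interval 84.8% to 136.9%) and TRIM10 at 106.9% (95% interval 91.1% to 125.5%). UBB lay wholly lower and TRIM10 and RANBP10 wholly higher with guide 2 than with guide 1, in a comparison of 2 libraries with 2 in which 22.2% of all genes lay wholly lower and 21.9% wholly higher.

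A p that misses the threshold does not show equal levels, and the intervals give what the libraries could tell. For both guides together, the intervals of FBXO7, TRIM10, UBE2H, UBAC1 and UBB had their lower bounds between 81.1% and 90.9% of the non-targeting level and their upper bounds between 109.9% and 121.8%. Those of UBE2O, RANBP10 and TRIM58 were wider, and a level as low as 66.1% lay inside the interval of TRIM58. In bulk RNA, fewer cells of a stage and less RNA per cell cannot be told apart, and protein was not measured.

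**Figure D3:**
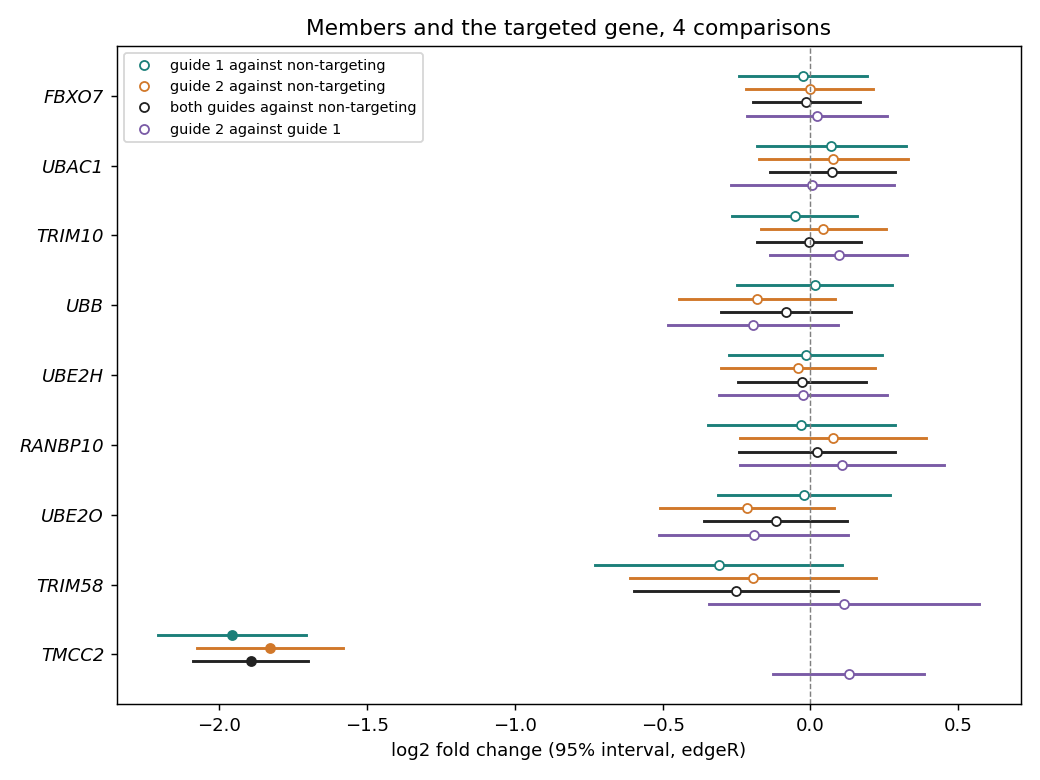
Log2 fold changes with 95% intervals (edgeR) of the 8 genes and TMCC2 in the 4 comparisons; filled points passed an adjusted p under 0.05. The 8 genes lie between -0.31 and 0.12 with every interval across 0, and the points of TMCC2 are at -1.96 (guide 1) and -1.83 (guide 2).

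Of the 28 pairs of members, 7 had a Pearson r of at least 0.7 in size over the 7 libraries, a limit chosen after the values were seen. UBAC1 and RANBP10 varied together (r = 0.89, and 0.64 without non-targeting replicate 1), as did UBB and UBE2O (0.85, and 0.89 without that library) and UBE2H and TRIM58 (0.72, and 0.83 without it). TRIM58 ran opposite to UBAC1 (-0.97, and -0.83 without that library) and to RANBP10 (-0.81, and -0.34 without it). UBE2H ran opposite to UBAC1 (-0.74, and -0.91 without that library), and UBE2O to TRIM10 (-0.72, and -0.71 without it). TRIM58 and TRIM10 stayed under the limit over all 7 libraries (r = 0.50), with a Spearman correlation of 0.86. Without non-targeting replicate 1 their r was 0.86, and this pair too was picked out after its values were seen. These are descriptions over 7 libraries of 3 groups. In non-targeting replicate 1, TRIM58 lay 0.57 above its mean on the log2 scale, UBE2H 0.10 above and TRIM10 0.02 above. RANBP10 lay 0.31 below its mean there, UBAC1 0.25, UBB 0.16, FBXO7 0.09 and UBE2O 0.06 below. The median GC content of the annotated transcripts was 49.4% for TRIM58, 43.3% for UBE2H and 48.9% for TRIM10. It was 57.1% for RANBP10, 56.3% for UBAC1, 51.4% for UBB, 48.5% for FBXO7 and 58% for UBE2O. UBE2H, with the least GC, lay above its mean, as did TRIM10 and TRIM58. RANBP10, UBAC1 and UBB, with more GC than those genes, lay below. FBXO7, with less GC than TRIM58, also lay below its mean, and UBE2O, with the most, lay only slightly below. Whether GC content accounts for the deviations of the members in non-targeting replicate 1 was not tested.

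**Figure D4:**
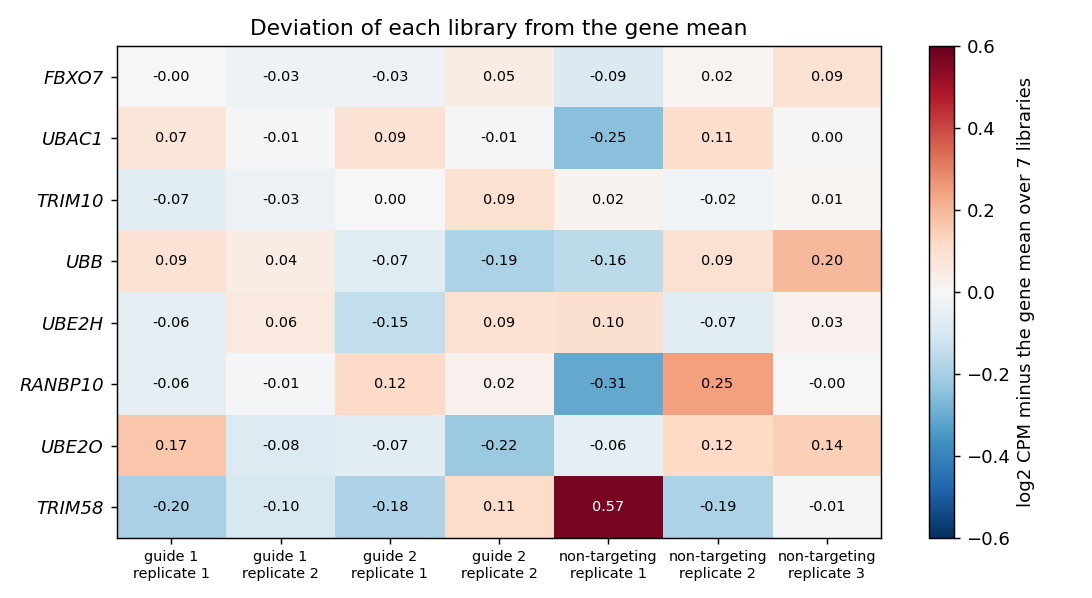
Log2 CPM of each member (rows) in each library (columns) minus its mean over the 7 libraries, in red above and blue below the mean. The strongest cells are in non-targeting replicate 1, with TRIM58 at 0.57 and RANBP10 at -0.31, and FBXO7 and TRIM10 range from -0.09 to 0.09 and from -0.07 to 0.09.

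The genes whose profile over the 7 libraries was most like that of the members were found among 7218 other tested genes with a mean of at least 5 CPM. The mean profile of the 8 was matched best by ADIPOR1 (Pearson r = 0.99), TXNRD2 (0.97), the Rhesus blood group gene RHD (0.97), WDR77 (0.96) and KANK2 (0.96). TRIM58 was matched by MXI1 and PIP4K2A (0.998 and 0.997), and FBXO7 by the red cell carbonic anhydrase gene CA1 (0.99) and RP11-20D14.6 (0.97). UBB was matched by the ribosomal protein gene RPS2 and LINC00152 (both 0.99), UBE2H by ARHGEF12 (0.99) and MIR22HG (0.98), and UBAC1 by ANAPC5 and CDK5RAP1 (both 0.99). TRIM10 was matched by ATMIN (0.98) and DYRK3 (0.97), UBE2O by CD82 (0.98) and THOP1 (0.97), and RANBP10 by MTG2 (0.98) and CHD4 (0.96). Each was picked as the highest of 7218 correlations over 7 libraries, so these values are a description. TRIM58 lay 0.57 above its mean in non-targeting replicate 1 and between -0.20 and 0.11 elsewhere, so its Pearson values rest largely on that library. By ranks (Spearman), TRIM58 matched MXI1 at 0.89 and PIP4K2A at 0.96. Over all the matches named here, the rank correlations ran from 0.79 (UBE2O with CD82) to 1 (UBB with RPS2, UBE2H with ARHGEF12).

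Other genes of the ubiquitin system and their partners were read from lists chosen with earlier results of these data known. With the members the lists held 194 tested genes, among them 9 dynein genes and partners or targets such as CDK6 and CDKN1B. None of the 194 was called for both guides against non-targeting, and 14 had an unadjusted p under 0.05 (7.22%, against 4.19% of all tested genes). Of the 194, 77 were higher and 117 lower, and their median log2 fold change was -0.03. Of all 10212 tested genes, 4710 were higher and 5502 lower. For each guide alone, 15 of the 194 had an unadjusted p under 0.05 with guide 1 (7.73%, against 4.78% of all tested genes) and 1 with guide 2 (0.515%, against 2.75%). None was called with either, and the shares were not tested against each other. Of the 33 conjugating enzyme genes 9 were higher and 24 lower, with a median of -0.07 and 0 called; UBE2D2 had 16.97 ± 2.52 CPM with a guide (SD, n = 4) and 23.9 ± 6.38 CPM in the non-targeting libraries (SD, n = 3). UBE2G1 had 35.7 ± 4.35 and 44.9 ± 10.8 CPM, UBE2J1 6.56 ± 0.975 and 9.08 ± 1.69 CPM, and UBE2B 192 ± 24.9 and 246 ± 114 CPM, in the same order of groups. The activating enzyme genes UBA1 (-0.16, SE 0.11) and UBA6 (-0.15, SE 0.17) were both negative and not called.

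In the CTLH complex, which marks proteins for degradation together with UBE2H, 5 of 11 genes were higher and 6 lower, with a median of -0.01 and 0 called. RMND5A had 148 ± 11.7 CPM with a guide (SD, n = 4) and 172 ± 39.5 CPM in the non-targeting libraries (SD, n = 3), WDR26 136 ± 20.3 and 157 ± 43.1 CPM, and MAEA, a RING subunit, 138 ± 6.68 and 132 ± 13.2 CPM. Among 9 tested genes of the SCF ligase and FBXO7 partners, CDK6, which FBXO7 binds, had 47.5 ± 4.98 CPM with a guide and 57.1 ± 5.74 CPM in the non-targeting libraries (log2 fold change -0.27, SE 0.11, adjusted p = 0.998, edgeR). SKP1 and CUL1, core parts of that ligase, differed by -0.12 (SE 0.11) and 0.12 (SE 0.10). Of 34 TRIM family genes 15 were higher and 19 lower (median -0.02, 0 called), with TRIM68 at -0.50, TRIM52 at 0.34, TRIM11 at 0.36 and TRIM32 at 0.28.

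The 9 tested dynein genes, which encode the motor that TRIM58 binds in mouse cells, had 6 positive and 3 negative fold changes, a median of 0.03 and 0 calls. DYNLT1 differed by 0.26 (SE 0.14), DYNLL2 by 0.26 (SE 0.16), DYNC1LI2 by 0.19 (SE 0.11) and DYNLRB1 by 0.16 (SE 0.11). Of 47 other ligases 19 were higher and 28 lower (median -0.03, 0 called). Among them were CUL4A (-0.28, SE 0.10), RNF10 (-0.22, SE 0.10), UBR4 (0.17, SE 0.10) and FBXO30 (-0.17, SE 0.12). The 42 tested genes of the deubiquitinase list, named for enzymes that remove ubiquitin, had 16 positive and 26 negative values (median -0.04, 0 called). Among them were USP38 at -0.36, USP9X at -0.22, USP48 at -0.25 and USP3 at 0.22.

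**Figure D5:**
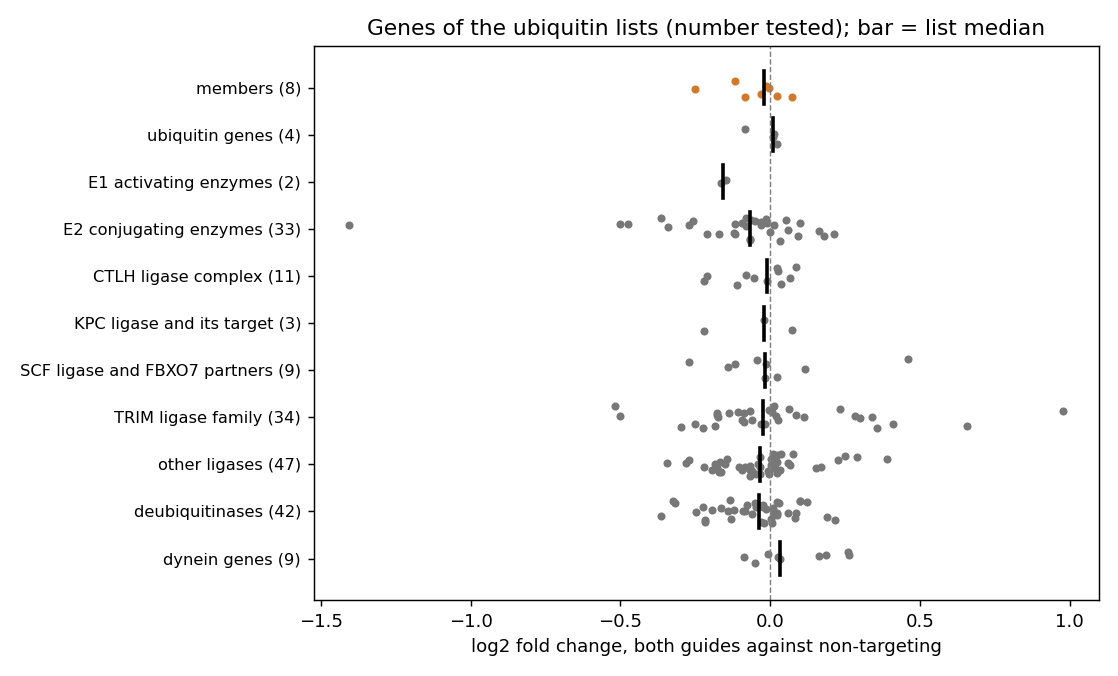
Log2 fold changes of both guides against non-targeting for the tested genes of each list, with the number tested in brackets; each point is a gene, the bar is the list median, and the members are in orange. The medians lie between -0.16, for the 2 activating enzymes, and 0.03, for the dynein genes, and the point farthest to the left is UBE2D1, picked out after its value was seen, at a mean of 0.581 CPM.

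The sequences before the starts of the TRIM pair are shown because these genes are the most and the least variable of the 8 over the 7 libraries. Both ranks include non-targeting replicate 1, on which that of TRIM58 rests. They are the 250 bases before the RefSeq start, 5′ to 3′ on the strand of the gene, from GRCh38.p14, at chr1:247856937-247857186 (plus strand) for TRIM58 and chr6:30161212-30161461 (minus strand) for TRIM10. Capitals mark matches on either strand to a GATA motif (AGATAA as well as AGATAG, and also TGATAA as well as TGATAG) or to a CACCC-type motif as bound by KLF factors (CCNCNCCC), whose matches can overlap.
TRIM58: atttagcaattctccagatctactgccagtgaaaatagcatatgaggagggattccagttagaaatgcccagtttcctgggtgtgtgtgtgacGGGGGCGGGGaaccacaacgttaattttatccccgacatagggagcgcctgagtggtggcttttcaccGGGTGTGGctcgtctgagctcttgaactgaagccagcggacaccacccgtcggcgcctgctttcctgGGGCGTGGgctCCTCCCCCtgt
TRIM10: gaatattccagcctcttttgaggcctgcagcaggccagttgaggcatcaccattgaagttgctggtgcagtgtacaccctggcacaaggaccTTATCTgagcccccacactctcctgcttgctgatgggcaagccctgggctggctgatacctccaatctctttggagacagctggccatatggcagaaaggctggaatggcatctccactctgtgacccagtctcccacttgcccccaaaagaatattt
The window of TRIM58 held 5 matches to the CACCC-type motif and 0 to the GATA motif. That of TRIM10 held 1 GATA match, which begins 158 bases before the start, and 0 of the CACCC type. Of 35116 RefSeq windows of this length, 53.4% held a CACCC-type match and 22.3% a GATA match. Over the 9 windows of the members, 6 held the first and 1 the second. A match is a run of letters and no evidence of binding.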

How the data were processed

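RNA of HUDEP-2 cells was made into Smart-seq2 libraries with Nextera indexing, per the labels' protocols. The deposited values are raw counts of reads by gene symbol, 1 column for each library, per the file headers. STAR, with no version, and GRCh37 (hg19) are named in the submitters' processing notes; which program counted the reads, on which annotation and with which strand setting, is not given in the sources used here. Smart-seq2 marks no strand and uses no molecular identifiers, so PCR copies count as reads.

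Counts were tested with edgeR 4.0.16 (R 4.3.3): filterByExpr (minimum count 10), TMM, and 1 quasi-likelihood fit of all 7 libraries by group (4 residual degrees of freedom). Of 32738 genes, 10212 were tested; calls are at p under 0.05 after Benjamini-Hochberg adjustment across these. Intervals and SEs are from that fit, which was tested on simulated data. Lengths and GC content came from GENCODE v29 transcripts by symbol (92.3% of tested genes). DESeq2 1.42.0, other scalings, no filter, GC correction, a replicate block, the compared groups alone and each library left out were alternatives.

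The members and lists were chosen with earlier results of these data known. Named genes were the members, TMCC2, up to 4 of each list by smallest unadjusted p for both guides, where a group averaged 5 CPM or more, and the genes most correlated with the members. Of the genes so named, 2 are not reported here. No protein sequences were used here.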

Additional observations from a re-analysis of the deposited data

How the results depend on the processing

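No alternative called any of the 8 members (0 of 128 member values for both guides, 0 of 128 for each guide and 0 of 120 for guide 2 against guide 1). The sign of a member's log2 fold change differed from the value reported in 19, 19, 14 and 7 of these values in that order and the cause was not tested. Genes called over the whole table numbered 2 for both guides, 3 for guide 1 and 1 for guide 2 against non-targeting, and 0 for guide 2 against guide 1. They numbered 8 for both guides, 19 for guide 1 and 4 for guide 2 against non-targeting, and 2 for guide 2 against guide 1 with no filter on low counts. With DESeq2 they were 4 for both guides, 6 for guide 1 and 3 for guide 2 against non-targeting, and 2 for guide 2 against guide 1. With the GC correction they were 6 for both guides, 19 for guide 1 and 3 for guide 2 against non-targeting, and 2 for guide 2 against guide 1. The labels give no shared batch, so samples with the same replicate number were not shown to be paired. Deviations of same-numbered libraries correlated at 0.0985 between guide 2 and guide 1, and at -0.156 and -0.119 between guide 1 and non-targeting. Between guide 2 and non-targeting they correlated at -0.375 and -0.351. With 2 libraries for a guide, the deviations of its replicates are equal and opposite, and guide 1 replicate 1 gave -0.0985 with guide 2 replicate 2. These correlations therefore cannot decide whether libraries were paired. With the replicate block the calls were 1 for both guides, 2 for guide 1 and 1 for guide 2 against non-targeting, and 1 for guide 2 against guide 1, and with the replicate block and GC correction together they were 5 for both guides, 10 for guide 1 and 2 for guide 2 against non-targeting, and 1 for guide 2 against guide 1. Leaving out each library in turn gave 1 to 53 calls for both guides, 1 to 59 for guide 1, 1 to 128 for guide 2 and 0 to 32 for guide 2 against guide 1, with the highest count without non-targeting replicate 1 each time. Values of the other sign with scaling to total counts were TRIM10 0.0011 for both guides, UBB -0.0072 for guide 1, FBXO7 0.041 for guide 2, UBE2H 0.041 for guide 2 against guide 1. Log2 fold changes of the other sign with no filter on low counts were TRIM10 0.0011 for both guides, FBXO7 0.0052 for guide 2. Log2 fold changes of the other sign with the replicate block were FBXO7 0.031 for both guides, UBE2O 0.0095, FBXO7 0.020 for guide 1, FBXO7 0.041 for guide 2. Log2 fold changes of the other sign with the GC correction were UBE2H 0.017, RANBP10 -0.0030 for both guides, UBB -0.020, UBE2H 0.071, UBAC1 -0.0035 for guide 1. Log2 fold changes of the other sign with the replicate block and GC correction together were UBE2H 0.060, FBXO7 0.035, RANBP10 -0.030 for both guides, UBE2H 0.12, FBXO7 0.027, UBAC1 -0.015 for guide 1, UBE2H 0.0050, FBXO7 0.044 for guide 2. With 1 library left out, log2 fold changes for both guides against non-targeting ran from -0.029 to 0.016 for TRIM10, -0.095 to 0.027 for UBE2H, -0.059 to 0.030 for FBXO7, -0.11 to 0.17 for RANBP10, -0.021 to 0.15 for UBAC1, -0.40 to 0.014 for TRIM58. With 1 library left out, log2 fold changes for guide 1 against non-targeting ran from -0.080 to 0.092 for UBB, -0.076 to 0.041 for UBE2H, -0.15 to 0.098 for UBE2O, -0.026 to 0.15 for UBAC1, -0.17 to 0.11 for RANBP10, -0.071 to 0.019 for FBXO7. With 1 library left out, log2 fold changes for guide 2 against non-targeting ran from -0.17 to 0.075 for UBE2H, -0.046 to 0.041 for FBXO7, -0.0023 to 0.089 for TRIM10, -0.017 to 0.16 for UBAC1, -0.35 to 0.072 for TRIM58, -0.056 to 0.22 for RANBP10. With 1 library left out, log2 fold changes for guide 2 against guide 1 ran from -0.15 to 0.096 for UBE2H, -0.038 to 0.059 for UBAC1, -0.015 to 0.067 for FBXO7, -0.036 to 0.26 for TRIM58. UBE2O and TRIM58 had the fewest counts, at 374 to 711 a library. For both guides the SE was 0.11 for UBE2O and 0.16 for TRIM58. It was 0.12 for RANBP10, which had 706 to 1017 counts. The 4 residual degrees of freedom limit every member, although the test also draws on the spread of other genes (10.3 prior degrees of freedom). Levels per kilobase moved with the length used: FBXO7 led by median transcript length and UBAC1 by the longest, at 808 and 308 CPM per kilobase.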
